A study of Homo sapiens with 6 samples.

Results

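Binding of a UHRF1 reading domain, its tandem Tudor domain (TTD), was described for the genes of 10 human apolipoproteins in HepG2 cells, out of 20033 protein-coding genes. The genes were chosen by name among those of plasma apolipoproteins, with earlier results of these data known, and all 10 were found in the annotation. Other apolipoproteins are described below as a separate list. UHRF1 helps to copy DNA methylation onto the new strand after replication, and its TTD holds the tail of histone H3 methylated at lysine 9. In the pulldown (CIDOP), native mononucleosomes released with micrococcal nuclease are captured by GST-tagged TTD instead of an antibody. HepG2 is an established hepatoblastoma-derived human liver line and was untreated. The study made 6 libraries from it, 2 biological replicates for each of TTD CIDOP, ChIP of H3K9me2 and input. The values below come from the authors' pooled list of 31569 TTD peaks, which holds positions and widths and no score. Neither an error between replicates nor the depth of a library can be given from it. Expression was not used here, so the liver identity of the cells was not checked against marker genes.

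Apolipoproteins are the protein parts of the particles that carry fat and cholesterol in blood, and the liver is their main source in humans together with the intestine. Apolipoprotein B is wrapped around a particle for its whole life, while the A, C and E proteins move between particles, where they switch lipases on or off or serve as ligands of receptors. Several of their genes arose by duplication and still lie side by side, in a cluster with APOA1, APOC3, APOA4 and APOA5 and in another with APOE and APOC1.

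TTD peaks were frequent at the starts of these genes. In the 5 kb centred on the transcription start site (TSS), 6 of 10 genes had a peak, against 16.9% of all protein-coding genes. APOA1, APOA4, APOA5, APOC3, APOB and APOH had one there, and APOA2, APOC1, APOE and LPA had none. The TSS was taken as the first base of the canonical transcript, which was the MANE Select transcript for all 10 genes. Cover is the percent of the bases of a window that lie in peaks. The median cover of the 5 kb was 28.7% over the apolipoprotein genes and 0% over all protein-coding genes, and the means were 25.5% and 5.19%. The median depends on the narrow peaks and on the window, since it was 0% when peaks narrower than the median of the list (2250 bp) were dropped and 0% within 1 kb on each side of the TSS. It was 13.7% at the 5′ end of the gene record and 18.1% with 1 value per locus. APOA1, APOA4, APOA5 and APOC3 belong to the same locus on chromosome 11.

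In the gene spans the share was closer to that of all genes. A peak overlapped 4 of the 10 annotated spans (APOA4, APOA5, APOC3 and APOH), against 34.2% of all protein-coding genes. Once peaks narrower than that median were dropped, it was 2 of 10, against 20.5%. In the span of the canonical transcript it was 3 of 10, without APOA5, against 30.6%. Most apolipoprotein genes are short, and 7 of them span 5103 bp or less. Of these 7 genes, 3 (APOA4, APOA5 and APOC3) had a peak in the annotated span, against 6.10% of the 2837 protein-coding genes of that length. All 3 lie in the same cluster on chromosome 11. The peaks in the spans of APOA4 and APOC3 were narrower than the median of the list, and that of APOA5 touched no base of its canonical transcript. Within 100 kb of the TSS all 10 genes had a peak, against 77.9% of all protein-coding genes. The median cover of these 200 kb was 11.0% over the apolipoprotein genes and 2% over all protein-coding genes. Genes of the same locus share most of this window, and with 1 value per locus the median of the apolipoprotein genes was 10.3%.

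**Figure D1:**
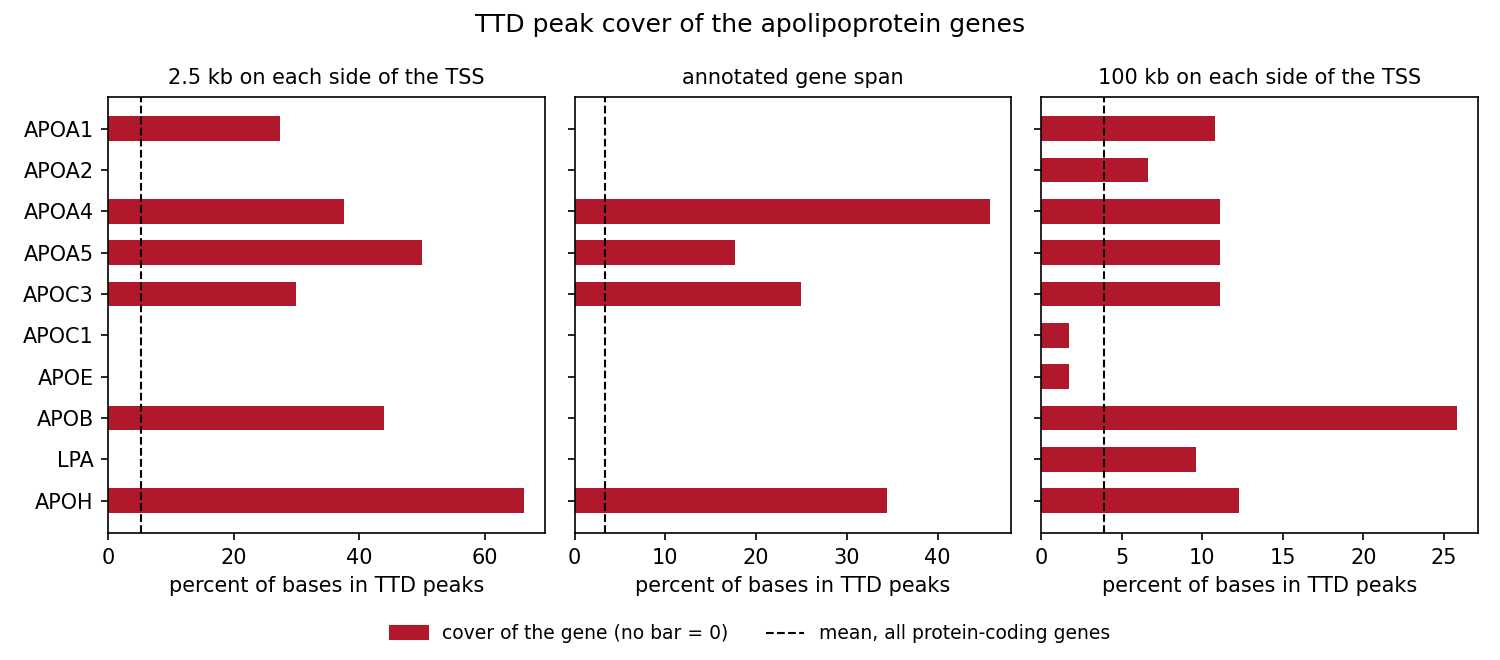
Percent of bases in TTD peaks for each apolipoprotein gene in 3 windows (left, 2.5 kb on each side of the TSS; middle, annotated gene span; right, 100 kb on each side of the TSS), with bars from 0 and a dashed line at the mean over all protein-coding genes. APOH was the most covered around the TSS (66.3%), APOA4 over the gene span (45.8%) and APOB over the 200 kb (25.8%).

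Upstream and downstream cover differed by gene and by distance. In 3 genes (APOA1, APOA5 and APOB) peaks were present in the 2.5 kb before the TSS and absent from the 2.5 kb that followed it, an arrangement seen in 8.41% of all protein-coding genes. In the 5 kb before the TSS, cover was higher than in the 5 kb from the TSS on for 6 of 10 genes, against 13.1% of all protein-coding genes. It was lower for 1 of 10 genes (APOC1), close to the 8.86% of all genes. For APOC1 this rests on 37 bp in peaks, or 0.740% of the 5 kb downstream. The remaining 3 genes had no peak on either side, and 15635 of the 20033 protein-coding genes had no difference between the sides. Among genes whose sides differed, the upstream side was the more covered in 85.7% of 7 apolipoprotein genes and 59.6% of all. In the narrower 2.5 kb on each side these shares were 66.7% of 6 genes and 63.3%, and over 100 kb on each side 5 of 10 apolipoprotein genes had more cover upstream, or 50%, against 52.3% of all genes with unequal sides. Mean cover over the 10 genes was 40.6% in the 5 kb upstream and 8.72% in the 5 kb downstream. Across all protein-coding genes these means were 5.84% and 4.37%. A peak of 1280 bp lay in the 5 kb upstream of both APOA4 and APOC3 and so counted for each. For APOA4, cover upstream and downstream was 39.3% and 23.9% over 5 kb, but 27.4% and 47.8% over 2.5 kb. For APOC3 these values were 25.6% and 16.8% over 5 kb, but 26.2% and 33.6% over 2.5 kb.

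Along the strand, mean cover of the apolipoprotein genes was highest between 3 and 2 kb upstream, at 50%. It was 33.8% in the last 1 kb before the TSS, 18.1% in the first 1 kb of the gene and 10.3% in the next. Between 2 and 3 kb downstream no apolipoprotein gene had a base in a peak. The mean over all protein-coding genes was highest between 2 and 1 kb upstream, at 7.21%, and lowest in the first 1 kb of the gene, at 2.52%.

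**Figure D2:**
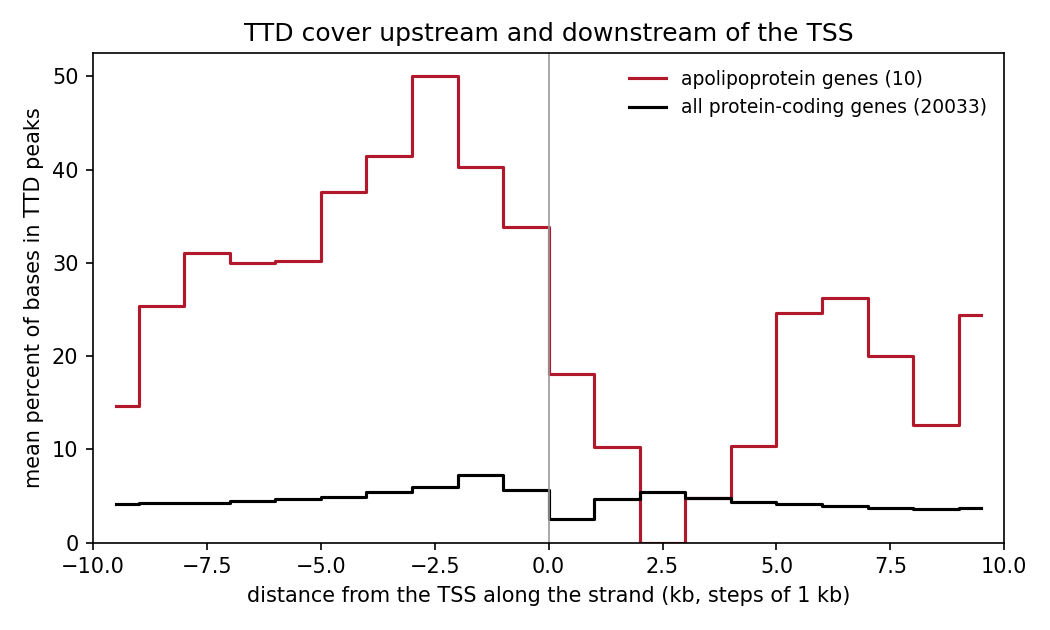
Mean percent of bases in TTD peaks (y axis) in steps of 1 kb along the strand from 10 kb before to 10 kb after the TSS (x axis), for the 10 apolipoprotein genes (red) and all 20033 protein-coding genes (black). The red line is at 50% between 3 and 2 kb upstream and at 0% between 2 and 3 kb downstream.

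The TSS base itself lay in a peak in 2 of 10 genes, APOA4 and APOH, against 2.19% of all protein-coding genes. Their promoters are therefore shown, together with that of APOA5, whose peak began 2 bp upstream of the TSS, and that of APOA2, which had no peak in the 5 kb. APOA5 and APOA2 were added after the values were seen. The sequences are the 250 bases before the TSS, from a table of RefSeq promoters on GRCh38.p14 in which 5 of the 10 genes (APOA2, APOA4, APOA5, APOE and APOH) were matched at this TSS. Promoter sequences of APOA1, APOC1, APOC3, APOB and LPA were not used here. That of APOE is not shown, and it had 0% of its bases in peaks and none of the motifs listed below. All 4 sequences are on the minus strand and are written 5′ to 3′, at chr17:66229416-66229665 for APOH, chr11:116823305-116823554 for APOA4, chr11:116791880-116792129 for APOA5 and chr1:161223629-161223878 for APOA2. Capitals mark matches to the motifs given after them.
APOH: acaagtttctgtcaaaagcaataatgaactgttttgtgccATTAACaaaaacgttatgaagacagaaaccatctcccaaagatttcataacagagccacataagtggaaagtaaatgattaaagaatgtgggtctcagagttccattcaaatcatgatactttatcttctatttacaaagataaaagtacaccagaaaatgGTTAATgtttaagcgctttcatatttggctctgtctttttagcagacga
APOA4: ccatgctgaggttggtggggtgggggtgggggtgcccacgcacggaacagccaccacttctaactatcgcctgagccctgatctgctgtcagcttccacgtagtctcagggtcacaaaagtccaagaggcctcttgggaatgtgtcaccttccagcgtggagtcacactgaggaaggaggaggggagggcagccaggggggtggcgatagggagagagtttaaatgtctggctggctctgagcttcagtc
APOA5: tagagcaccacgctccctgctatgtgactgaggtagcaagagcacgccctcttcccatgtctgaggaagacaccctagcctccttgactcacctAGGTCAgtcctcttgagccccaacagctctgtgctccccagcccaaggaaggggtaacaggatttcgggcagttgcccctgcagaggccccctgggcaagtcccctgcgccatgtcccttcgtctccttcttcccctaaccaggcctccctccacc
APOA2: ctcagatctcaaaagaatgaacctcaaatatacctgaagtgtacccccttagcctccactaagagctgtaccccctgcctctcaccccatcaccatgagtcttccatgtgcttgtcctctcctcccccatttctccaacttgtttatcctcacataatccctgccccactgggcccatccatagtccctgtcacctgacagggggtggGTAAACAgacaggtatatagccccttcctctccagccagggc
The searched letters, on both strands, were the TATA box motif TATAAA, CAAAGTCCA (HNF4), TGTTTAC (FOXA), AGGTCA (bound by nuclear receptors) and GTTAAT (bound by HNF1), and no match overlapped another. APOH had a GTTAAT on each strand, 49 to 44 and 210 to 205 bases before the TSS, and 6.23% of the 35116 RefSeq promoters of this length had this motif. APOA5 had AGGTCA at 156 to 151 bases before the TSS, a motif present in 12.1% of promoters. APOA2 had TGTTTAC on the opposite strand at 42 to 36 bases before the TSS, as did 2.98% of promoters somewhere in the 250 bases. These letters were absent from the APOA4 window, and TATAAA (10.7% of promoters) and CAAAGTCCA (0.325%) from all 4. Peaks covered 100% of the APOH and APOA4 windows, 99.6% of that of APOA5 and none of that of APOA2. The GC content of the same windows was 33.2% for APOH, 59.2% for APOA4, 60.8% for APOA5 and 52.8% for APOA2.

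APOA1, the main protein of high density lipoprotein (HDL) and the activator of cholesterol esterification in plasma, had its nearest peak 1129 bp upstream of the TSS. This peak (chr11:116838751-116841120, 2370 bp) lay in the antisense gene APOA1-AS and reached to 3498 bp upstream. It covered 54.9% of the 2.5 kb before the TSS and no base of the gene, which spans 1872 bp on the minus strand. Cover of the 5 kb was 27.4%, and 8.04% of all protein-coding genes were covered at least as much. Within 1 kb on each side of the TSS there was no peak.

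APOA2, the other major structural protein of HDL, had no peak in the gene or within 5 kb of its TSS on chromosome 1. The nearest peak (chr1:161215121-161218550, 3430 bp) began 5.08 kb downstream of the TSS, past the end of the gene, and contained the TSS of FCER1G, a subunit of Fc receptors. APOA2 stood in a stretch dense in other genes. Of 13 other protein-coding genes with a TSS within 100 kb, 6 had a peak in the 5 kb around their TSS. Cover of the 200 kb around APOA2 was 6.67%, and 18.1% of all protein-coding genes had at least as much.

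The cluster on chromosome 11 places APOA5, APOA4, APOC3 and APOA1 in a row of 48.3 kb, and 6 peaks covered 38.4% of it, against 2.49% of the chromosome. Only APOC3 is read from the plus strand. The stretches between the genes differed. Between APOA5 and APOA4, 3 peaks covered 49.5% of 28.3 kb, and between APOA4 and APOC3, 2 peaks covered 30.7% of 6.40 kb. No peak was listed in the 2.68 kb between APOC3 and APOA1, whose 3′ ends face each other. Because the genes are close, 1 peak can count for several of them within 100 kb, and the cover of that window was 11.1% for APOA4, APOA5 and APOC3 and 10.8% for APOA1.

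APOA5, a liver protein that promotes the breakdown of triglycerides by lipoprotein lipase, had a peak of 5940 bp (chr11:116791881-116797820) that ended at its start. Upstream of the TSS 2499 of 2500 bp were covered, and downstream none of 2500 bp. The peak edges lie on a grid of 10 bp, so a distance of 2 bp is below their resolution. Of the 4 annotated starts of APOA5, 2 lay in this peak, and these begin upstream of the canonical one. The 540 bp of the annotated span in the peak belong to those longer transcripts, since no base of the canonical transcript was in a peak.

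APOA4, a protein of chylomicrons and HDL made mainly in the intestine, had a peak across its TSS. The peak (chr11:116822111-116823990, 1880 bp) reached from 686 bp upstream to 1193 bp downstream. It contained all of exon 1 (162 bp), intron 1 (357 bp) and exon 2 (127 bp), and 70.5% of intron 2. In coding sequence 176 bp were covered. The span of APOA4 was covered to 45.8%, and 0.943% of all protein-coding genes had as much or more of the span in peaks. Its peak was narrower than the median of the list, however, and cover was 0% with the wider peaks.

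APOC3, an inhibitor of lipoprotein lipase and of remnant uptake, had 2 narrow peaks, 1 on each side of the TSS. The upstream peak (chr11:116826781-116828060, 1280 bp) lay 1847 bp before the TSS. The downstream peak (chr11:116831001-116831840, 840 bp) began 1094 bp after the TSS and lay wholly in intron 3, of which it covered 45.0%. APOC3 was thus free of peaks around its TSS, and no base within 1 kb on each side was covered. Cover of the 5 kb was 29.9%, and 90.8% of all peaks in the list were at least as wide as the intronic one. Both peaks were narrower than the median of the list. With the wider peaks, cover was 0% in the 5 kb and 0% in the span, which was otherwise covered to 24.9%.

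APOE, the ligand through which remnant particles are taken up by receptors of the LDL receptor family, and APOC1, a small protein that inhibits cholesteryl ester transfer, share a stretch of chromosome 19. No peak was listed in the 13.6 kb from the start of APOE to the end of APOC1. The only peak within 100 kb of either gene (chr19:44919571-44923010, 3440 bp) lay just past the 3′ end of APOC1, in sequence outside of annotated genes. It began 4963 bp downstream of the TSS of APOC1 and 13.8 kb downstream of that of APOE. The cover of 1.72% in 200 kb was below the mean of 3.91% over all protein-coding genes, and 53.3% of genes had at least as much. Chromosome 19 as a whole was covered to 1.26%, the lowest of the 6 chromosomes that carry apolipoprotein genes. None of the 8 other protein-coding genes with a TSS within 100 kb of these genes had a peak in the 5 kb around its TSS.

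**Figure D3:**
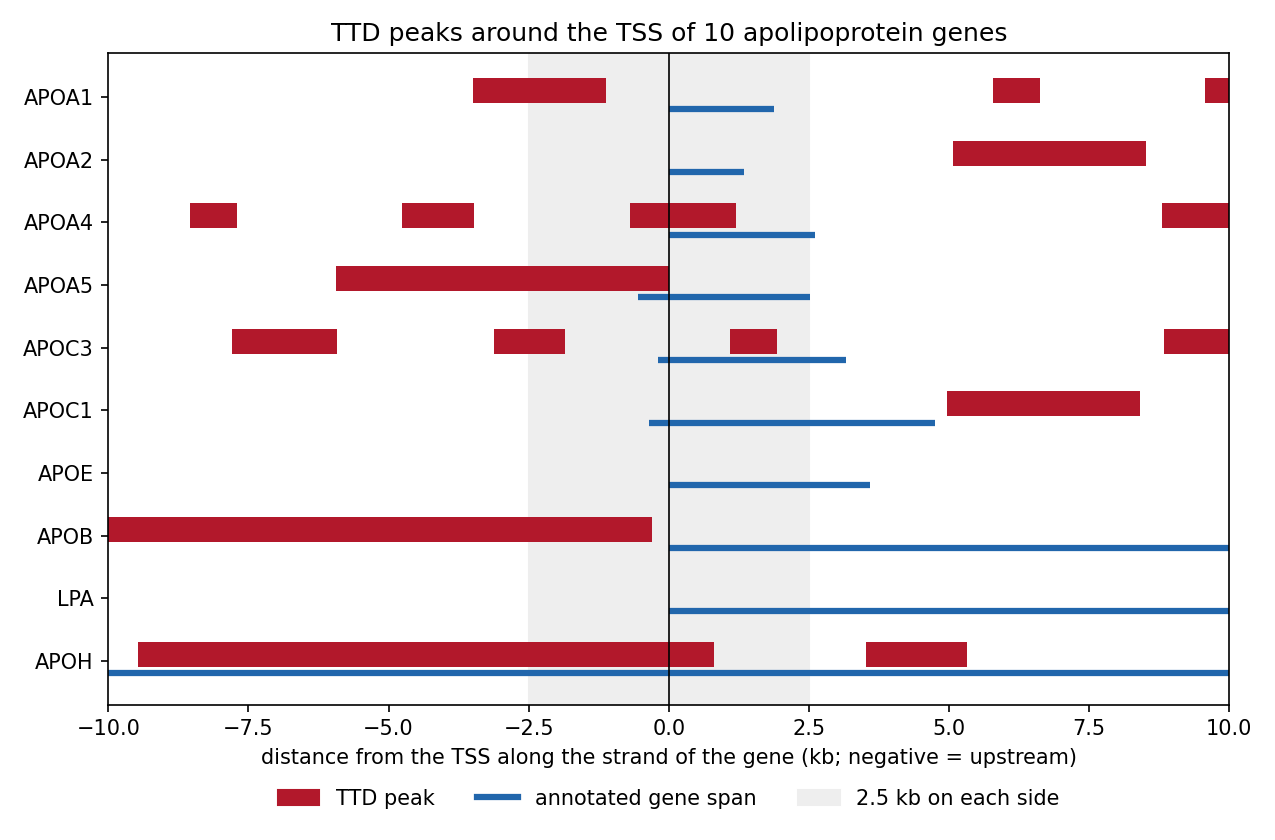
TTD peaks (red) within 10 kb of the TSS of each apolipoprotein gene, drawn along the strand of the gene so that upstream is to the left (x axis, kb), with the annotated gene span in blue and the 5 kb window shaded. Peaks at APOA5 and APOB end at or just before the TSS, those at APOA4 and APOH cross it, and APOE and LPA have none within 10 kb.

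APOB, the structural protein of very low and low density lipoproteins, had the broadest peak at any of these genes. The peak (chr2:21044381-21076350) was 31970 bp wide, ranked 10 by width in the list, from which the authors had removed large peaks they judged false, and 3 on chromosome 2, and lay in sequence outside of annotated genes. It began 308 bp upstream of the TSS and continued to 32277 bp upstream. The gene span of 42.6 kb downstream of it, with 29 exons, had no peak. Of the genes at least as long as APOB, 39.3% likewise had none in the span. Cover of the 100 kb upstream of the TSS was 49.7%, against 1.90% of the 100 kb downstream. With 5 further peaks upstream, the 200 kb around APOB were covered to 25.8%, and 1.13% of all protein-coding genes had at least as much. On chromosome 2, 3.72% of 1210 adjoining windows of 200 kb were covered as much or more.

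Peaks of 10 kb or more made up 2.30% of the list, and such a peak touched the 5 kb around the TSS in 0.374% of all protein-coding genes (75 genes). APOB and APOH, 2 of 10 apolipoprotein genes, were among these 75. Their very broad peaks differed in position, since that of APOB stopped short of the TSS and that of APOH ran across it.

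LPA encodes apolipoprotein(a), which is tied to apolipoprotein B in lipoprotein(a) and derives from a copy of the plasminogen gene. No peak was listed in its span of 133 kb with 39 exons or in the 5 kb around the TSS. Among the 2612 protein-coding genes at least as long, 22.9% had no peak in the span. The nearest peak lay 18.9 kb upstream, and 5 peaks covered 19.2% of the 100 kb upstream while none was listed in the 100 kb downstream. The widest of them (chr6:160696491-160703690, 7200 bp) contained the TSS of PLG, which encodes plasminogen and is read in the opposite direction. The 5 kb around the TSS of PLG were covered to 83.8%, against 0% for LPA.

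APOH, or beta-2-glycoprotein I, binds anionic phospholipids and is the main antigen of antiphospholipid antibodies. It had the highest cover of the 5 kb around the TSS, at 66.3%, and 1.18% of all protein-coding genes were covered at least as much. A peak of 10280 bp (chr17:66228601-66238880) reached from 9465 bp upstream to 814 bp downstream of the TSS. It contained exon 1 (100 bp) with 64 bp of coding sequence and 63.9% of intron 1. Another peak of 1800 bp lay in intron 3 and covered 79.9% of it. The annotated span of 44.5 kb includes starts farther upstream, and 2 of 4 annotated starts lay in peaks. At the 5′ end of this span no base of the 5 kb window was covered, so the value for APOH holds for the canonical start.

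**Figure D4:**
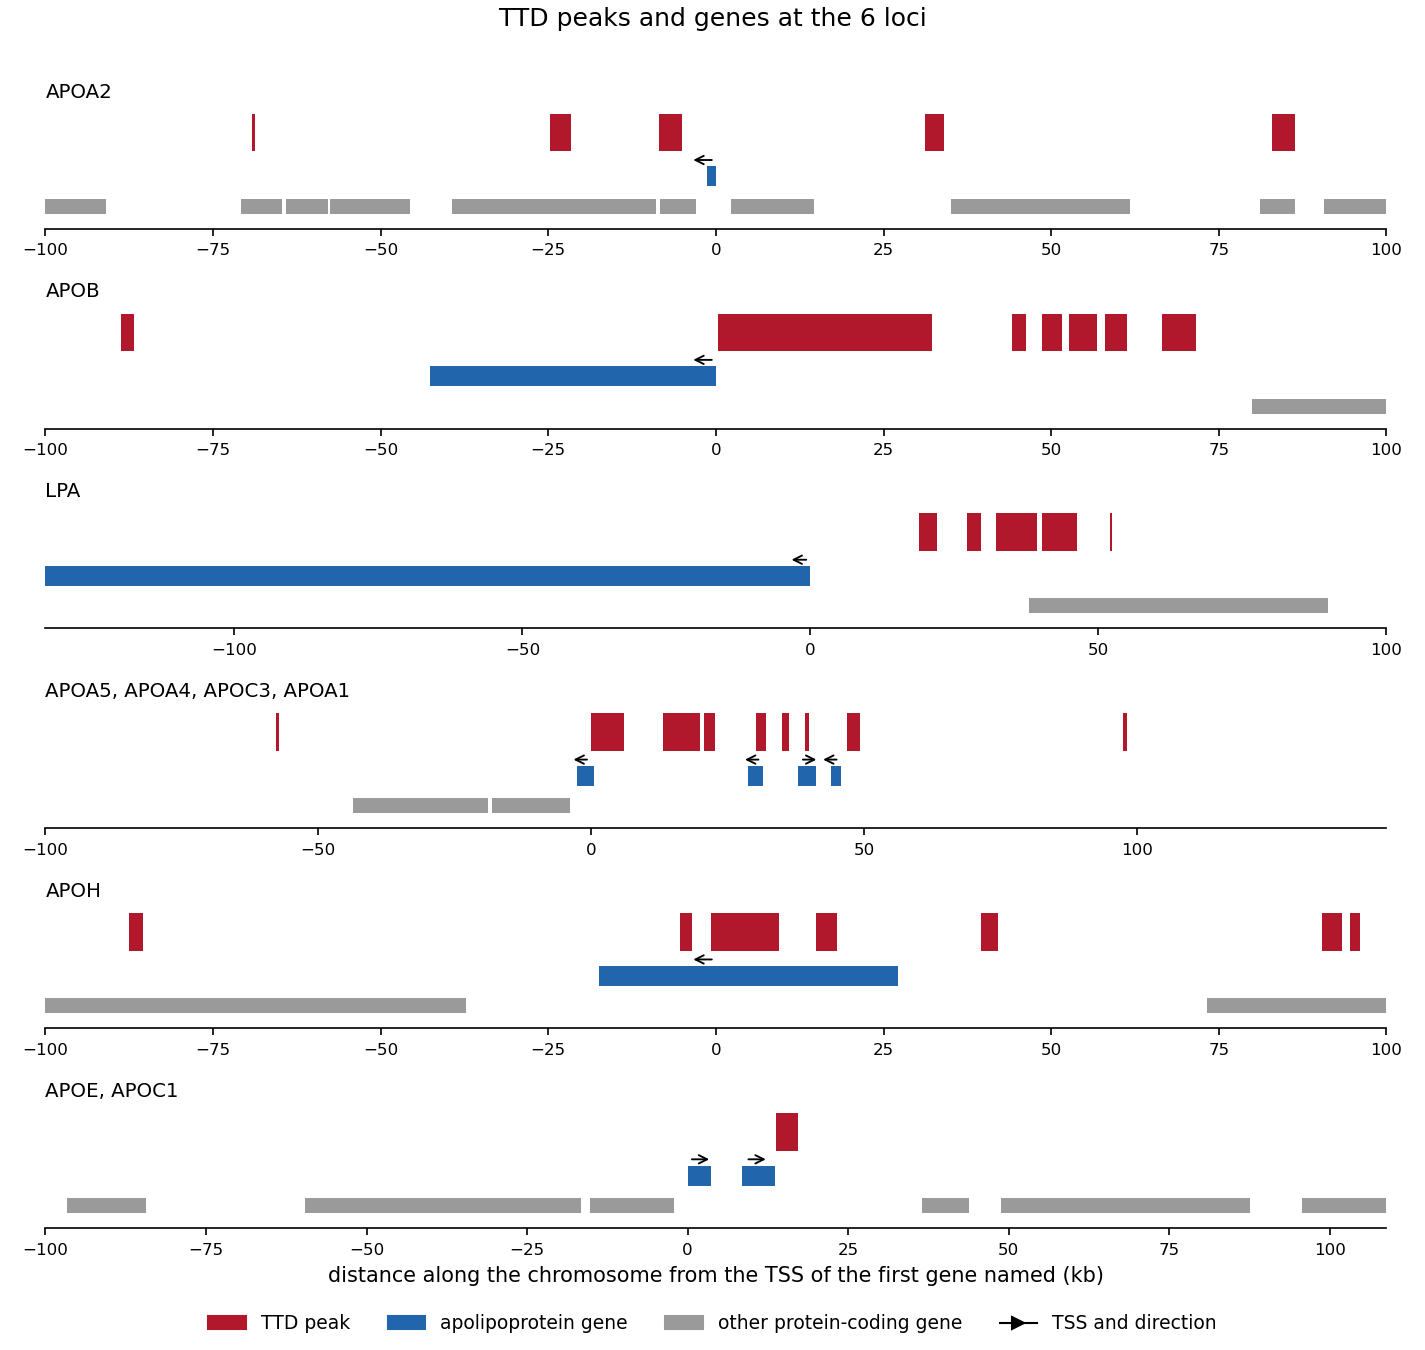
Maps of the 6 loci with TTD peaks (red), apolipoprotein genes (blue) and other protein-coding genes with a TSS within 100 kb (grey), against the distance along the chromosome from the TSS of the first gene named in each map (x axis, kb); arrows show where and in which direction each apolipoprotein gene is read. The peak of 31970 bp beside APOB is the widest of 34 peaks shown, and the map of APOE and APOC1 has 1 peak.

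The 6 loci together held 34 peaks and were each covered more densely than their chromosome. The ratio of locus to chromosome cover was highest for APOB (4.55), followed by the chromosome 11 cluster (3.62), APOH (3.01), APOA2 (2.17), LPA (1.55) and the pair of APOE and APOC1 (1.31). A locus here is the 100 kb on each side of the TSSs, widened to hold the gene spans. The share of adjoining 200 kb windows of the chromosome covered as much as that around the gene, or more, was 3.72% for APOB. It was 5.04% for APOA4, APOA5 and APOC3, 5.19% for APOA1 and 8.89% for APOH. For APOA2 it was 13.3%, for LPA 18.9% and for APOE and APOC1 19.5%. Peak widths ranged from 370 bp, in PLG, to 31970 bp.

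The starts of the apolipoprotein genes share a low content of CpG sites. The observed to expected ratio of CpG in the 1 kb around the TSS had a median of 0.242 over the 10 genes and of 0.725 over all protein-coding genes. It was lowest for APOA2 (0.0439) and highest for APOB (0.527). The median GC content of the same 1 kb was 59.9% against 61.3%. Genes with a CpG ratio of 0.527 or less had a peak in the 5 kb around the TSS in 13.6% of 5878 cases, and the other 14155 genes in 18.3%, while mean cover of these 5 kb was 5.76% and 4.96%. Genes with and without a peak were mixed along this scale, since APOC3 (0.150) and APOA4 (0.195) had a peak and LPA (0.194) and APOA2 had none.

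Lists of other genes of lipoprotein metabolism were described in the same way, beside the 16.9% of all protein-coding genes with a peak in the 5 kb around the TSS. Of 15 other apolipoproteins, 4 (26.7%) had such a peak. The most covered were SAA4, a serum amyloid protein of HDL (87.2%), APOF, an inhibitor of lipid transfer (50%), and APOL1, the trypanolytic factor of human HDL (44.4%). Among 13 genes of particle assembly, lipases and lipid transfer, 4 (30.8%) had a peak there. Among them were MTTP, which loads lipid onto apolipoprotein B (54.1%), and CETP, the cholesteryl ester transfer protein (53.2%). None of 11 genes of receptors and lipid transporters had a peak in this window, and 7 of them had one in the gene span, against 34.2% of all protein-coding genes of any length. The median cover of the 5 kb was 0% in each of the 3 lists. Mean cover was 14.4% in the other apolipoproteins, 15.9% in the list of assembly, lipases and transfer and 0% in the receptors and transporters, beside 25.5% for the 10 apolipoprotein genes and 5.19% for all protein-coding genes. Of 27 other protein-coding genes with a TSS within 100 kb of an apolipoprotein gene, 7 had a peak in the 5 kb around their TSS, and none of these peaks was shared with the 5 kb window or the span of an apolipoprotein gene.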

How the data were processed

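Per the submitters' processing notes and the study's methods, the authors used Trimmomatic 0.38 for trimming and HISAT2 2.2.1 for mapping to hg38, computed coverage in bins of 10 bp with deepTools 3.3.2, and called broad peaks with MACS2 2.1.1 on the mean of both TTD replicates. Blacklisted regions were then removed, as were artifacts and wide peaks judged false on inspection, so ranks and shares by width hold for the list after this step. The authors deposited 1 pooled list of 31569 peaks with positions and widths in bp. The methods name no input track for peak calling. The H3K9me2 ChIP and input libraries and expression ratios were not used here.

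GENCODE release 44, on the same build, gave the genes and TSSs. Peak counts (overlap of 1 bp or more) and cover were computed by interval arithmetic that was tested on simulated peaks, with Python 3.11.15, numpy 2.4.6, statsmodels 0.14.6 and matplotlib 3.10.9. Shares over all protein-coding genes are descriptions and no tests were made. The members and lists were chosen with earlier results of these data known. All 10 members are named, with the 3 most covered genes of each other list if above 0, neighbours that share a peak with a member, and genes that a described peak lies in. Of the genes so chosen, 1 is not reported here. Alternatives were only the wider peaks (median width or more), joined peaks, other windows and TSSs, a stricter overlap, the canonical span and 1 value per locus.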

Additional observations from a re-analysis of the deposited data

How the results depend on the processing

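Counts of apolipoprotein genes with a peak within 100 kb of the TSS were 10 in each of the 5 alternatives, with shares over all protein-coding genes from 53.1% to 90.0%. Counts for the 5 kb window (6 as reported) were 7 within 5 kb on each side (22.0% of all genes), 4 within 1 kb (10.8%), 5 at the 5′ end of the gene record (16.9%), 6 over all annotated TSSs (24.9%) and 4 with the stricter overlap (12.4%). Without peaks narrower than the median, this count was 4 (7.31%), and the count for the gene span was 2 in place of 4 (20.5%). The count for the gene span was 3 in the canonical span (30.6%) and 3 with the stricter overlap (32.7%). The median cover of the 5 kb window was 28.7% as reported, 0% with those wider peaks, 0% within 1 kb on each side of the TSS, 13.7% at the 5′ end of the gene record and 18.1% with 1 value per locus. The median cover of the 200 kb window was 11.0%, and 19.9% within 50 kb on each side. It was 7.46% within 200 kb on each side, 7.47% with the wider peaks, 11.4% with joined peaks and 10.3% with 1 value per locus. Of 120 covers of single genes under alternatives, 44 moved beyond a yardstick, the 95% Wilson interval over steps of 10 bp, which takes neighbouring steps as independent and so measures no error. These include all 20 values for windows of 50 and 200 kb on each side, and none of the 30 with peaks less than 1 kb apart joined. The cause of these differences was not tested.

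A stricter list was formed by width, as peaks carry no score. Leaving out a replicate was not possible, since peaks were called on the mean of both. No paired analysis was possible because the results come from no test. The study states a minimum number of reads, but the depth of each library cannot be read from the peak list, and a gene without a peak is one without a peak at the authors' cutoffs.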
